A study of Mus musculus with 60 samples.

Results

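The serpins are a large gene family, and 59 mouse serpin genes were read on these arrays by 73 of the 55681 probes. A probe was taken as a member when the RefSeq accession in its annotation led to a symbol formed by Serpin, a clade letter from a to i and a number. The brightest probe stood for each gene, and the whole array covered 20018 named genes. The family fell into 22 members of clade A, 27 of clade B, 2 each of clades E, F and I, and 1 each of clades C, D, G and H.

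Lung, liver and forestomach were taken from 20 male Muta Mouse animals about 10 weeks old, a transgenic strain that carries a bacterial lacZ reporter in every animal, controls included. Benzo(ghi)perylene (BghiP), a polycyclic aromatic hydrocarbon, was given by gavage in olive oil on 28 days at 25, 12.5, 6.25 or 0 mg/kg-bw/day. These groups are called D3, D2, D1 and D0, with 5 mice in each, and D0 mice received olive oil alone. Tissues were collected 72 hours after the last dose, and the 60 arrays set tissue RNA in Cy5 against a common reference RNA pooled from mouse cell lines in Cy3. All values here are log2 ratios of Cy5 to Cy3, so 0 means the level of the reference for that probe, and levels of different probes cannot be ranked.

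Most serpins trap a serine protease by offering it a loop as bait and changing shape once the loop is cut, which destroys both molecules. Clade A members such as alpha-1-antitrypsin are made by liver and secreted into blood, and clades C, D and F hold plasma inhibitors of thrombin and plasmin. Clade B members lack a classical signal peptide and mostly stay inside cells, where several protect squamous epithelium or immune cells from their own proteases. Some members inhibit no protease: Serpina6 carries corticosteroids, Serpina7 carries thyroid hormone, and Serpinh1 (HSP47) is a collagen chaperone of the endoplasmic reticulum.

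The arrays that stood apart bear directly on this family. The lung array of D0 mouse 1 had all 8 squamous markers (Krt5, Krt14, Krt4, Krt13, Trp63, Lor, Krtdap and Sprr3) above background, with a summed level of 8.51 on the log2 scale, within the forestomach range of 8.50 to 9.98. It also had all 7 skeletal muscle markers (Acta1, Ckm, Myh4, Tnnt3, Actn3, Pvalb and Mylpf) above background, at a summed 7.88 against a lung median of 2.50 and a forestomach maximum of 4.52. The lung array of D3 mouse 20 had all 7 hepatocyte markers (Alb, Apoa1, Ttr, Apob, Cps1, Fgb and Tat) above background, at a summed 7.10 against a lung median of 2.99, and 4 of 6 markers of the glandular stomach, at 4.25 against 2.65. The forestomach array of D0 mouse 2 had all 5 lung epithelial markers (Sftpc, Sftpb, Sftpa1, Scgb1a1 and Ager) above background, at 8.72 against a forestomach median of 5.38. Each tissue carried its own markers: the 7 hepatocyte markers summed to 10.44 to 11.38 in liver and the 5 lung epithelial markers to 9.53 to 10.17 in lung. Forestomach arrays differed widely in 6 markers of the glandular stomach, from 2.87 to 10.12, and 8 of them had raised albumin, as described with the liver members. In bulk tissue, fewer cells of a type and less RNA per cell cannot be told apart.

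Promoter sequences are shown first because several members of the same tissue group share letters in them. RefSeq promoters of assembly GRCm38.p6, running from 250 bases before to 50 bases after the annotated start, were at hand for 48 of the 59 members. The hexamer GTTAAT, the half-site bound by hepatocyte nuclear factor 1, was searched on both strands and lay in 7.1% of all 32851 promoters. It lay in 6 of the 14 liver-high members with a promoter, the 4 alpha-1-antitrypsin genes among them, and the hexamer is in capitals in these 4.
Serpina1a, chr12:103863607-103863668, minus strand: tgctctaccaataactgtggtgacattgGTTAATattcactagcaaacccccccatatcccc
Serpina1c, chr12:103904944-103905005, minus strand: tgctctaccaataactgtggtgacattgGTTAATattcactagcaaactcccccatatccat
Serpina1d, chr12:103773616-103773677, minus strand: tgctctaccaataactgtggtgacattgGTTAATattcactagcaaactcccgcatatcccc
Serpina1e, chr12:103956942-103957003, minus strand: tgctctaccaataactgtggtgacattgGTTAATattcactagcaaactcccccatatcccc

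The first letter of the hexamer lay at -21, -27, -16 and -78 from the annotated starts of Serpina1a, Serpina1c, Serpina1d and Serpina1e, and the letters around it were nearly the same in all of them. Across the whole window, the promoters of Serpina1a, Serpina1c and Serpina1d were identical at 85.2% to 91.2% of aligned positions, and that of Serpina1e at 64.2% to 67.5% with these 3. The other liver-high members with the hexamer were Serpina3c and Serpina7, and 4 members outside that group also held it (Serpinb3b, Serpinb3d, Serpinb8 and Serpini2), of which Serpinb3b and Serpinb8 were highest in forestomach.

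The frame TGANTCA, which holds the AP-1 site when N is C or G, reads the same on both strands and lay in 7.81% of all promoters. It lay in 7 of the 11 forestomach-high members with a promoter, all of clade B and all on chromosome 1. The 7 matches are in capitals, and for Serpinb8 and Serpinb11, which had 2 matches each, the one nearest before the start is given.
Serpinb5, chr1:106861007-106861069, plus strand: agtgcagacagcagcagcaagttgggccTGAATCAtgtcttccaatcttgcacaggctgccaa
Serpinb12, chr1:106934376-106934438, plus strand: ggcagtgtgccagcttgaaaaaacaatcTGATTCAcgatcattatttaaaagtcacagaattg
Serpinb11, chr1:107362210-107362272, plus strand: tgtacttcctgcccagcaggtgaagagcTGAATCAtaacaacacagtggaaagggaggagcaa
Serpinb7, chr1:107422616-107422678, plus strand: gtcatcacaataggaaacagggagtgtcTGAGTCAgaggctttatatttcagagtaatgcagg
Serpinb2, chr1:107511301-107511363, plus strand: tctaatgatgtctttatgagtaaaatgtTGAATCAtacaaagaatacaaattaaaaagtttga
Serpinb10, chr1:107528921-107528983, plus strand: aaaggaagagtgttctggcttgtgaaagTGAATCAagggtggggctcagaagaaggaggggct
Serpinb8, chr1:107589955-107590017, plus strand: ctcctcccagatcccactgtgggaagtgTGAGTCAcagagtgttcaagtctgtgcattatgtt

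Serpinb7 and Serpinb8 held the AP-1 letters themselves (TGACTCA on either strand, in 5.2% of all promoters), as did the liver-high Serpina1a, Serpina1c and Serpina1d. The other 5 genes of this list held TGAATCA on either strand, which lay in 2.81% of all promoters and in no further member with a promoter. These matches describe the letters alone, and no binding was measured. The core letters of the xenobiotic response element, to which the aryl hydrocarbon receptor binds, are GCGTG, searched on both strands. They lay in 6 of the 48 promoters (Serpina12, Serpina1f, Serpina3b, Serpinb6a, Serpinb6c and Serpinf2) and in 32.4% of all, while the longer TTGCGTG lay in none of the 48 and in 1.16% of all.

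A probe was tested in a tissue when the scanner program put its Cy5 signal well above background on 5 or more of the 20 arrays. By this filter 30 members were tested in lung, 35 in liver, 36 in forestomach and 47 in any tissue. The other 12 were Serpina3j, Serpinb1c, Serpinb3d, Serpinb6d, Serpinb6e, Serpinb9b, Serpinb9c, Serpinb9d, Serpinb9e, Serpinb9f, Serpinb9g and Serpini2, the last a pancreatic serpin. Serpinb9f and Serpinb9g, relatives of the granzyme B inhibitor Serpinb9, were above background in the reference channel on 59 and 52 of the 60 arrays and on at most 1 tissue array each.

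**Figure D1:**
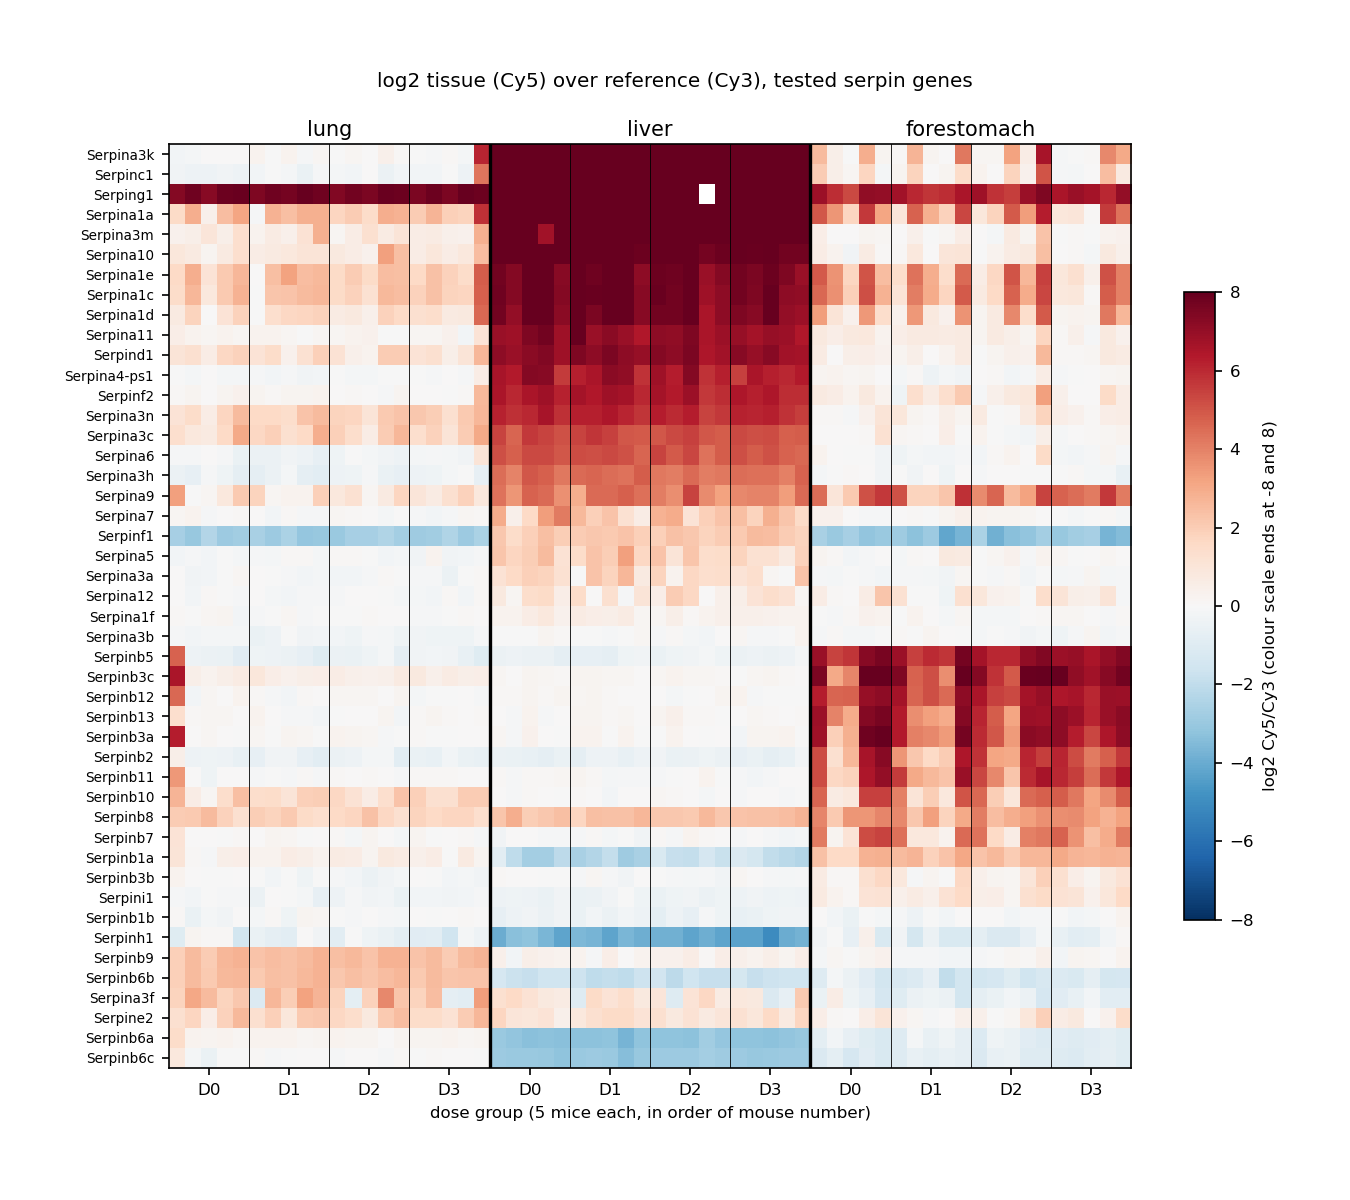
Log2 ratio of tissue (Cy5) to reference (Cy3) for tested serpin genes (rows, ordered by the tissue with the highest vehicle mean) on 60 arrays (columns, 5 mice per dose group in order of mouse number); the white cell is a value removed for an outlier flag. Clade A members make up most of the liver block and clade B members most of the forestomach block. The first lung column (D0 mouse 1) and the last lung column (D3 mouse 20) stand out from their group mates, the former for clade B and the latter for clade A members.

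The tissues were first compared in the D0 mice, with limma fitted to all 60 arrays, and a member was called where the difference reached 1.5-fold and the adjusted p did not exceed 0.05. Between lung and liver 30 of the 47 members were called, where 44.4% of all 33255 probes were called. In lung 7 were higher (25.4% of all probes) and in liver 23 (19.0%). Between lung and forestomach 25 were called (33.3% of all probes), with 11 higher in lung (18.8%) and 14 higher in forestomach (14.5%). Between liver and forestomach 40 were called (39.2% of all probes), with 22 higher in liver (18.2%) and 18 higher in forestomach (21.0%).

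The filter was passed through 1 tissue alone by 1 member in lung, 5 in liver and 8 in forestomach, which needed a signal in that tissue only. The counts therefore describe the family and support no difference from the array. At 8-fold or more, 21 members differed between lung and liver (5.51% of all probes), 8 between lung and forestomach (2.03%), and 28 when liver was set against forestomach (5.14%). Liver arrays were run on slides that held no other tissue, so tissue and slide cannot be told apart in the comparisons with liver. Lung and forestomach shared slides, and with slide as a block 28 members were called between them (34.1% of all probes).

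Liver stood above both other tissues in 21 members, where 13.3% of all probes did so. Serpina3a, Serpina4-ps1, Serpina5, Serpina6 and Serpina7 had passed the filter through liver alone, which required a signal there. The 21 were 16 members of clade A, both members of clade F, and the single members of clades C, D and G. Their smallest lead over the nearer tissue ranged from 1.58 to 10.04 on the log2 scale.

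Serpina3k, a mouse relative of alpha-1-antichymotrypsin also known as contrapsin, led this group. In the livers of D0 mice 1 to 5 its log2 ratio was 11.20, 10.98, 11.59, 11.44 and 11.19. In lung it was -0.24, -0.13, 0.06, 0.06 and 0.04, and in forestomach 2.56, 0.49, -0.01, 2.93 and 0.23. The liver values lay far from all others, and in forestomach mice 1 and 4 lay above the rest. No D0 lung array had the probe well above background, so its lung level has only a bound. Liver was at least 2560-fold higher than lung (measured means 11.28 and -0.04, limma adjusted p = 1.47e-16) and exceeded forestomach by a log2 difference of 10.04 ± 0.88 SE (limma adjusted p = 1.39e-14). In forestomach only the arrays of mice 1 and 4, 2 of 5, had the probe above background, so no fold is given there. A minimum of this kind is the lower of the fold of the mean ratios and a bound in the Cy5 channel, where the dim tissue is set at the lowest signal well above background or the probe's own signal if higher. It may carry dye bias, since dyes were not swapped.

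Serpinc1 (antithrombin, the plasma inhibitor of thrombin that heparin speeds up) showed the same shape. Its liver values in D0 mice 1 to 5 were 10.61, 9.92, 10.54, 10.67 and 10.39. Lung was between -0.43 and -0.27 with no array above background, and forestomach was 2.03, 0.47, 0.16, 1.69 and -0.16. Mice 1 and 4 were again the high forestomach arrays. Liver was at least 1770-fold higher than lung (measured means 10.43 and -0.36, limma adjusted p = 2.69e-22) and exceeded forestomach by 9.59 ± 0.60 SE on the log2 scale (limma adjusted p = 4.32e-20), where again 2 of 5 arrays, those of mice 1 and 4, were above background.

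The other large liver leads were those of Serpina3m, Serpina10, Serpina11 and Serpina4-ps1. Serpina3m had a D0 liver mean of 8.36 ± 0.95 (SD, n = 5) against 0.72 in lung and 0.19 in forestomach. Serpina10, the protein Z-dependent inhibitor of factor Xa, had 8.20 ± 0.19 (SD, n = 5) against 0.78 in lung and 0.26 in forestomach. Serpina11 had 7.13 ± 0.43 (SD, n = 5), against 0.28 in lung and 0.63 in forestomach.

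Serpina4-ps1, annotated as a pseudogene of the kallistatin family, gave 6.63 ± 0.71 (SD, n = 5) in liver and was above background on no D0 array of lung or forestomach. It was at least 106-fold above lung and at least 87.9-fold above forestomach, with measured means of -0.10 and 0.17. Serpinf2 (alpha-2-antiplasmin), Serpind1 (heparin cofactor II) and Serpina6 (corticosteroid-binding globulin) had D0 liver means of 6.39, 7.11 and 5.08. Serpina6 was at least 37.9-fold above lung and at least 34.5-fold above forestomach, and Serpinf2 at least 74.1-fold above lung.

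Alpha-1-antitrypsin, the inhibitor of neutrophil elastase, is encoded in mice by near-identical copies whose probes may read one another, so Serpina1a, Serpina1c, Serpina1d and Serpina1e are not independent. Serpina1a in D0 liver was 8.91, 8.42, 9.35, 9.61 and 8.52. It was also above background in all D0 lungs, at 1.5, 2.93, 0.38, 2.47 and 3.15, and in all D0 forestomachs, at 4.96, 3.51, 1.70, 5.68 and 3.14. All 5 liver values exceeded those of the other tissues, while lung and forestomach overlapped. Liver exceeded lung by 6.88 ± 0.86 SE (118-fold, limma adjusted p = 7.96e-10) and forestomach by 5.16 ± 0.86 SE (35.9-fold, limma adjusted p = 8.94e-07). Without mouse 3 the latter was 4.54. The high forestomach values of 4.96 and 5.68 are those of mice 1 and 4, the arrays with raised albumin, whose part was not tested. Lung against forestomach did not pass (-1.71 ± 0.86 SE, limma adjusted p = 0.0917), and passed with slide as a block (adjusted p = 0.0342). The D0 liver means of the 3 further copies were 7.81, 7.75 and 7.82.

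Serpina3n, an acute-phase relative of alpha-1-antichymotrypsin that inhibits granzyme B in mice, differed among all 3 tissues. Its D0 liver values were 6.13, 5.85, 6.05, 6.62 and 5.84, its lung values 1.10, 1.48, 0.57, 1.73 and 2.52, and its forestomach values 0.10, 0.09, -0.08, 0.37 and 1.06. Liver lay above every other array, and lung and forestomach overlapped only through mouse 5 of forestomach. Liver exceeded lung 24.5-fold (limma adjusted p = 1.10e-20), and lung exceeded forestomach 2.25-fold (limma adjusted p = 0.000432).

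Serping1 (C1 inhibitor, which blocks the first complement proteases and plasma kallikrein) was well above background on every D0 array of the 3 tissues. Its D0 means were 9.20 ± 0.23 in liver, 7.62 ± 0.29 in lung and 6.42 ± 0.81 in forestomach (SD, n = 5). Each pair differed: liver over lung 3.00-fold (limma adjusted p = 3.96e-07), liver over forestomach 6.88-fold (8.62e-14) and lung over forestomach 2.30-fold (9.01e-05).

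Serpinf1 (PEDF, a secreted serpin that blocks vessel growth and inhibits no protease) was below the reference outside liver. The D0 liver values were 2.17, 1.44, 1.90, 2.39 and 1.96, lung was between -3.03 and -2.37, and forestomach between -3.14 and -2.58. Liver was 26.4-fold above lung (limma adjusted p = 1.27e-26) and 28.5-fold above forestomach (limma adjusted p = 5.08e-27). Lung and forestomach differed by 0.11 ± 0.21 SE (limma adjusted p = 0.679), and a second Serpinf1 probe put them at -0.33 (limma adjusted p = 0.177).

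**Figure D2:**
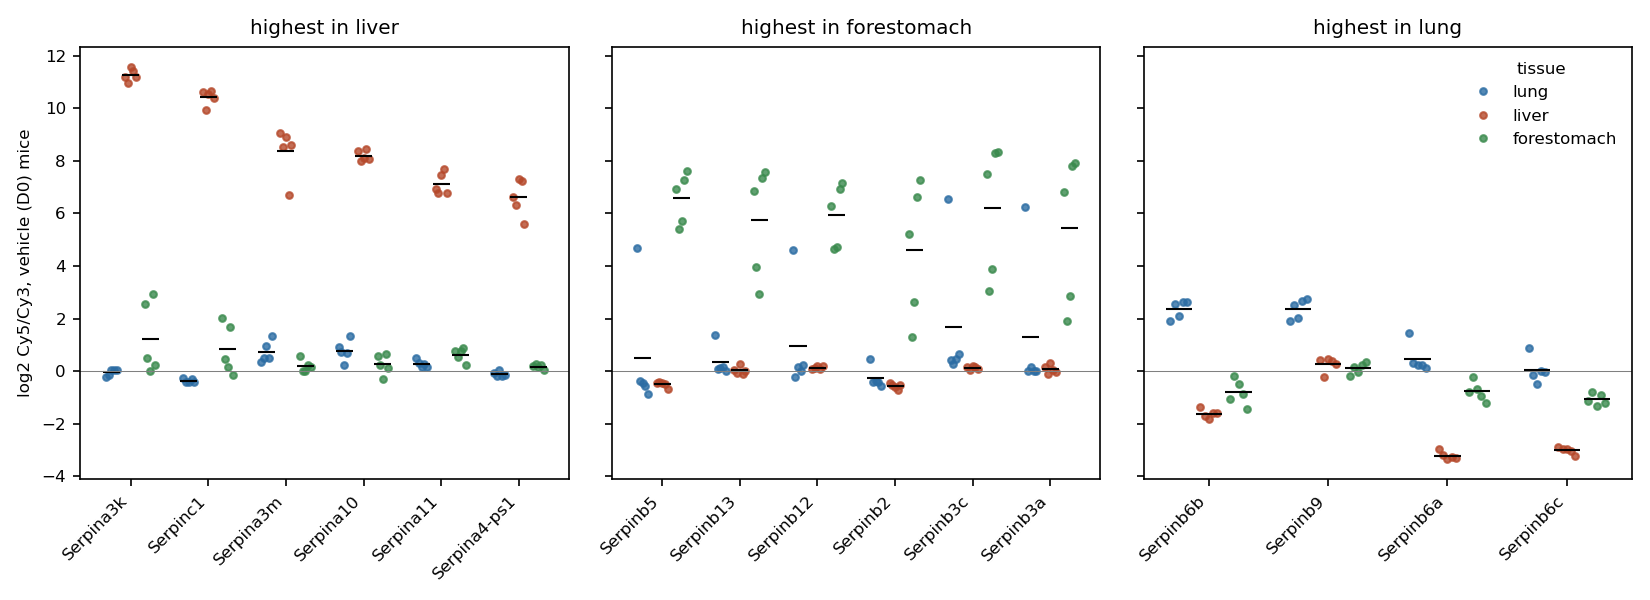
Log2 ratio of Cy5 to Cy3 in the 5 D0 mice of each tissue (points, horizontal bars mark means) for the members with the largest lead of liver, forestomach and lung over both other tissues; 4 such members are shown for lung. The single high lung point in the forestomach panel is D0 mouse 1, and the forestomach values of Serpinb13, Serpinb2, Serpinb3c and Serpinb3a fall into a high set and a pair of low mice.

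Forestomach stood above both other tissues in 13 members, where 8.28% of all probes did so, and 12 of them were of clade B. Clade B lies in a cluster on chromosome 1 and another on chromosome 13 of the genome. Of the 12 chromosome 1 members 11 were tested, and these 11 were above both other tissues in forestomach. Of them, 8 passed the filter through forestomach alone, which required a signal there, so their count is no support for a difference. Serpinb3c, Serpinb8 and Serpinb10 passed it in lung as well. Of the 15 chromosome 13 members 6 were tested, and 1 of them (Serpinb1a, the inhibitor of neutrophil elastase) was above both in forestomach and 4 were above both in lung. The remaining one, Serpinb1b, was not above both in any tissue. The 13th forestomach member was Serpini1 (neuroserpin, an inhibitor of tissue plasminogen activator).

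Serpinb5 (maspin, an epithelial serpin that inhibits no protease) had forestomach values of 6.93, 5.41, 5.72, 7.29 and 7.61 in D0 mice 1 to 5. Liver was between -0.70 and -0.42, with no array above background. Lung was 4.69 in mouse 1 and between -0.88 and -0.38 in the other 4, the only lung value above background being that of the array with squamous markers. Forestomach was at least 137-fold above liver (measured means 6.59 and -0.50, limma adjusted p = 4.63e-18). Lung minus forestomach was -6.10 ± 0.50 SE (limma adjusted p = 4.73e-15), with 1 of 5 lung arrays above background. Serpinb5 passed the filter through forestomach alone, so these p-values describe the differences and lend them no support. Without mouse 1 in both tissues no lung array was above background, and forestomach was at least 134-fold above lung. Minimum folds with a mouse left out, here and for the members that follow, were added after seeing the data.

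Serpinb3a and Serpinb3c are mouse relatives of the human squamous cell carcinoma antigen genes. Serpinb3a in forestomach was 6.81, 1.91, 2.85, 7.79 and 7.94, and Serpinb3c was 7.51, 3.04, 3.89, 8.31 and 8.34. In lung the array of mouse 1 read 6.26 for Serpinb3a and 6.54 for Serpinb3c, while the other 4 lay between -0.01 and 0.17 and between 0.28 and 0.66. Mice 2 and 3 were the low forestomach arrays for both genes and mouse 1 the high lung array. Serpinb3a, unlike Serpinb3c, passed the filter through forestomach alone, so its p-value describes the difference and lends it no support. Lung minus forestomach was -4.17 ± 0.84 SE for Serpinb3a (limma adjusted p = 3.48e-05), and -3.22 without mouse 5, and only 1 lung array had it above background. Without mouse 1, when no lung array did, forestomach was at least 17.9-fold above lung. For Serpinb3c it was -4.54 ± 0.79 SE (limma adjusted p = 3.10e-06), from -5.44 without mouse 1 to -3.72 without mouse 4. Forestomach exceeded liver at least 21.4-fold for Serpinb3a (15.7 without mouse 5, 37.1 without mouse 2) and at least 49.9-fold for Serpinb3c (36.7 without mouse 1, 84.1 without mouse 2).

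Serpinb12, Serpinb13 and Serpinb2 were also low in forestomach mice 2 and 3. Serpinb12 was 6.30, 4.64, 4.74, 6.94 and 7.15, and Serpinb13, a cathepsin inhibitor of squamous epithelium also called headpin, was 6.85, 3.95, 2.95, 7.35 and 7.59. Serpinb2 (plasminogen activator inhibitor 2) was 5.20, 1.29, 2.63, 6.61 and 7.28. Each was above background on 1 of 5 lung arrays, that of mouse 1. Lung minus forestomach was -5.00 for Serpinb12 (-4.51 without mouse 4), -5.38 for Serpinb13 (-6.03 without mouse 3, -4.84 without mouse 5) and -4.87 for Serpinb2 (-5.66 without mouse 2, -4.12 without mouse 5). Without mouse 1 no lung array was above background, and forestomach was at least 56.6-fold, 23-fold and 18.3-fold above lung. Forestomach exceeded liver at least 56.7-fold, 26.5-fold and 19.7-fold. With each mouse left out in turn, these minimum folds ranged from 46.6 to 71 for Serpinb12, from 20.8 (without mouse 5) to 39.8 (without mouse 3) for Serpinb13, and from 13.7 (without mouse 5) to 32.2 (without mouse 2) for Serpinb2.

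Those same mice stood apart in markers of the glandular stomach, and mouse 2 also in the lung epithelial markers given above. The 6 markers (Atp4a, Atp4b, Pgc, Gkn1, Tff1 and Muc5ac) summed to 9.09 and 8.54 in D0 mice 2 and 3 and to 4.57, 4.47 and 3.59 in mice 1, 4 and 5. The 8 squamous markers were at 8.75 and 9.05 in mice 2 and 3 and at 8.85, 9.26 and 9.80 in the others. The part of glandular or lung RNA in the serpin values was not tested. Across the other doses the relation was looser, since mouse 10 had 9.64 for the glandular markers and 7.63 for Serpinb3a. Without the lung array of mouse 1, 24 members differed between lung and forestomach. Without the forestomach arrays of mice 2 and 3, 28 members separated lung from forestomach and 39 separated liver from forestomach. Shares over all probes are not given for these settings, so the counts support no difference from the array.

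The spread of Serpinb3a within a dose was largest in D0. It had forestomach means of 5.46 ± 2.87, 5.06 ± 1.84, 5.73 ± 1.58 and 6.48 ± 0.75 (SD, n = 5) from D0 to D3.

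**Figure D3:**
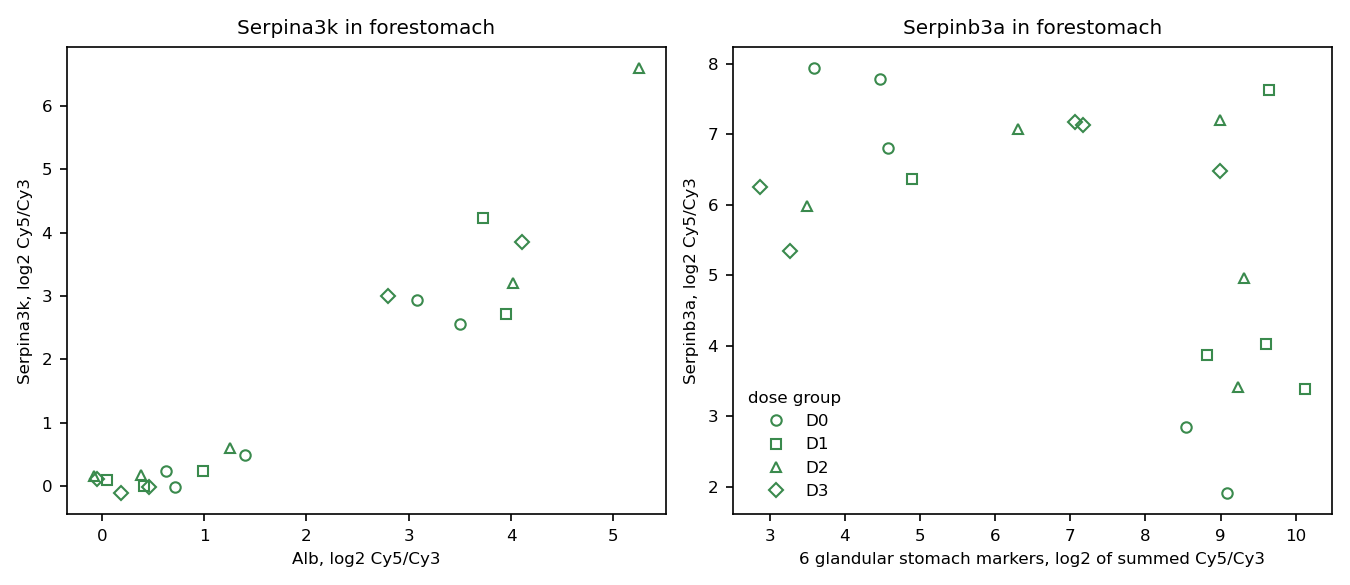
Forestomach arrays of all 20 mice, with the symbol giving the dose group and all axes on the log2 scale. The left panel sets Serpina3k against Alb, where 8 arrays lie above 2.5 on both axes, and the right panel sets Serpinb3a against the sum of 6 glandular stomach markers, where D0 mice 2 and 3 have the lowest Serpinb3a.

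Liver members appeared on some forestomach arrays, together with albumin. On the forestomach arrays of mice 1, 4, 7, 10, 13, 15, 19 and 20, Serpina3k lay between 2.56 and 6.60 and Alb between 2.80 and 5.25. On the other 12 arrays Serpina3k lay between -0.11 and 0.60 and Alb between -0.08 and 1.40. These 8 arrays were 2 of each dose group. The whole list of 7 hepatocyte markers split them less, at a summed 4.41 to 8.11 with 6 or 7 markers above background against 2.79 to 7.81 with 0 to 6 on the others. Apoa1 and Ttr, for example, were 6.79 and 6.66 in mouse 9, outside the set, and 1.75 and 2.23 in mouse 1, inside it. Their part in the values was not tested. On the lung array of D3 mouse 20, Serpina3k was 6.11, Serpina1a 5.82, Serpinc1 4.30 and Alb 5.08. Its 4 group mates lay between -0.15 and 0.09 for Serpina3k and between 0.08 and 0.13 for Alb. Without the D0 forestomach arrays of mice 1 and 4, 38 members differed between liver and forestomach and 22 between lung and forestomach. The share over all probes is not given for this setting, so these counts support no difference from the array.

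Lung stood above both other tissues in 5 members, where 13.2% of all probes did so. Among them were 4 members of clade B, Serpinb6b, Serpinb9, Serpinb6a and Serpinb6c, by a lead of 3.17, 2.12, 1.24 and 1.11 on the log2 scale.

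Serpinb6b, a close relative of the intracellular inhibitor Serpinb6a, was 1.90, 2.55, 2.10, 2.62 and 2.64 in D0 lung. Liver ranged from -1.84 to -1.36 and forestomach from -1.46 to -0.17, so the lung values lay above all others. The highest forestomach value was that of mouse 2, the array with lung epithelial markers, whose part in it was not tested. Lung exceeded liver 15.7-fold (limma adjusted p = 4.31e-26) and forestomach 9.02-fold (limma adjusted p = 6.03e-21).

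Serpinb9, which shields lymphocytes from their own granzyme B, was 1.92, 2.53, 2.02, 2.65 and 2.75 in lung, above liver (-0.23 to 0.47) and forestomach (-0.17 to 0.34). Lung exceeded these 4.34-fold and 4.83-fold (limma adjusted p = 4.77e-19 and 2.31e-19). The 5 T and NK cell markers (Cd3e, Cd3g, Nkg7, Gzma and Ncr1) summed to 4.29 to 6.67 in lung, 2.09 to 2.55 in liver and 1.81 to 2.57 in forestomach. Their part in the Serpinb9 values was not tested. Liver and forestomach differed by 0.15 ± 0.14 SE for Serpinb9 (limma adjusted p = 0.379).

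Serpinb6a and Serpinb6c were 13.0-fold and 8.28-fold higher in lung than in liver (limma adjusted p = 1.17e-26 and 5.44e-27). Over forestomach the lead of lung was 2.37-fold and 2.16-fold (limma adjusted p = 6.33e-09 and 4.97e-10). A second Serpinb6c probe put lung above liver by 1.71 on the log2 scale (limma adjusted p = 5.99e-14). That probe put lung above forestomach by 0.24 (limma adjusted p = 0.203), which was not called. Serpinb6c therefore stood above both tissues by its brighter probe alone. The D0 lung values of Serpinb6a were 1.45 in mouse 1 and 0.13 to 0.30 in the other 4, and those of Serpinb6c were 0.86 in mouse 1 and -0.51 to -0.01 in the others. The highest lung value of both came from the array with squamous markers.

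Serpinh1 was lowest in liver. Its D0 values were -3.96, -3.35, -3.25, -3.66 and -4.25 in liver, -1, 0.20, 0.09, 0.11 and -1.48 in lung, and -0.28, -0.06, -0.64, 0.43 and -1.19 in forestomach. Liver did not overlap with the other tissues. It was 9.69-fold below lung (limma adjusted p = 7.25e-15) and 10.2-fold below forestomach (limma adjusted p = 4.32e-15). Lung and forestomach differed by -0.07 ± 0.28 SE (limma adjusted p = 0.86), a sign that turned without mouse 1 (0.095). The 4 listed collagen clients (Col1a1, Col1a2, Col3a1 and Col4a1) were called lower in liver than in lung and in forestomach, where 25.4% and 21.0% of all probes were. Their median difference was 3.34 for lung minus liver and -3.07 for liver minus forestomach. The 4 fibroblast markers, 2 of which are these collagens (Col1a1 and Col1a2, with Dcn and Pdgfra), had a summed log2 level of 0.05 to 1.13 in liver, 1.54 to 2.33 in lung and 1.29 to 2.64 in forestomach. Their part in the Serpinh1 values was not tested.

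Serpina9, a serpin of germinal-centre B cells, was high in both liver and forestomach. D0 liver was 4.33, 3.56, 4.73, 4.54 and 3.67, and forestomach was 4.45, 0.98, 2.10, 5.08 and 5.67. Forestomach mice 2 and 3 were the low ones here too, and the highest lung value (3.28) was that of mouse 1. Liver and forestomach differed by 0.51 ± 0.68 SE (limma adjusted p = 0.543), and lung was below both (limma adjusted p = 0.00019 and 0.0025). Serpina9 lies outside the named set and was picked after its values were seen.

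Among 33 listed target proteases, 15 were higher in liver than in forestomach (18.2% of all probes) and 10 lower (21.0%), and 10 were higher in lung than in liver (25.4%) and 16 lower (19.0%). Between lung and forestomach, 7 were higher in lung (18.8%) and 10 lower (14.5%). Several plasma proteases were highest in liver. F2 (prothrombin, whose active form Serpinc1 and Serpind1 inhibit) had D0 means of 8.12 in liver, -0.20 in lung and 0.57 in forestomach. Plg (plasminogen, whose active form Serpinf2 blocks) had 7.41, -0.04 and 0.38. F10 (factor X, whose active form Serpina10 and Serpinc1 inhibit) was highest in lung instead, at 2.33 against 0.43 in liver and 0.64 in forestomach. Klk5, a kallikrein of shedding squamous epithelium, was at 6.70 in forestomach against 0.35 in lung and 0.23 in liver. Gzma, a granule protease of T and NK cells, was at 4.89 in lung, 0.08 in liver and -0.09 in forestomach. Elane, the neutrophil elastase that alpha-1-antitrypsin inhibits, was at 0.84 ± 0.17 in liver (SD, n = 5), above 0.00 ± 0.11 in lung and 0.14 ± 0.09 in forestomach (limma adjusted p = 9.93e-12 and 2.02e-09). The 6 listed neutrophil markers, Elane with S100a8, S100a9, Ngp, Camp and Ltf, went the other way as a sum. Over all doses they summed to 3.03 to 4.34 in liver, 6.07 to 8.35 in lung and 4.16 to 8.31 in forestomach.

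The dose comparisons were made within each tissue against its 5 D0 mice, which D1, D2 and D3 share. With limma, 0 members were called in any of the 9 comparisons, and 0% of all probes were called. Unadjusted p was under 0.05 for 1 of 30 members in lung at D3 (4.81% of all probes), 1 of 35 in liver at D3 (12.1%) and 0 of 36 in forestomach at D3 (1.5%). With slide as a block 0 members were called as well, where 0.0677% of all probes were called in lung at D3 and 0.0927% in liver at D3. The median D3 difference of the members was 0.05 for lung, -0.17 for liver and 0.02 for forestomach, against 0.01, 0 and 0.01 over all probes tested.

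Of the 43 partner genes, 0 were called by limma at D3 in any tissue. The slope on dose called 0 members in all 3 tissues, where 0.239% of liver probes and 0% of lung and forestomach probes were called. With slide as a block it called 1 of 30 members in lung, where 0.306% of all probes were called, and 0 members in liver (2.61%) and forestomach (0%).

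Serpina3n in lung had values of 2.15, 1.95, 1.25, 2.08 and 2.63 at D3 beside the D0 values given above, and the groups overlapped. The highest D3 value is that of mouse 20, the lung array with hepatocyte markers. The D3 difference was 0.53 ± 0.33 SE (limma adjusted p = 0.998), or ± 0.13 SE with an adjusted p of 0.0618 when slide was a block. Without mouse 20, a setting chosen after seeing the data, it was 0.37 ± 0.34 SE (limma adjusted p = 1), or 0.56 ± 0.14 SE with an adjusted p of 0.0737 when slide was a block. Among the members reported here, the lowest limma p in lung at D3 was that of Serpinb1b (0.20 ± 0.11 SE, unadjusted p = 0.0956). Serpinb8 followed (-0.34 ± 0.20 SE, unadjusted p = 0.105), and both had a limma adjusted p of 0.998. Serpinb1b was at 0.11 without mouse 2 and Serpinb8 at -0.20 without mouse 3.

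Serpinh1 had the lowest p in liver at D3. Against the D0 liver values above, D3 was -4.31, -4.31, -5.05, -3.98 and -3.81, so that mice 19 and 20 lay inside the D0 range. D1 had a mean of -3.82 ± 0.25 and D2 of -4 ± 0.20 (SD, n = 5). The D3 difference was -0.60 ± 0.20 SE (1.51-fold lower, unadjusted p = 0.00766), with a limma adjusted p of 0.245, and of 0.137 with slide as a block. Without mouse 18 it was -0.41 and without mouse 5 it was -0.74. Serpina5 (protein C inhibitor) and Serpina10 followed in liver, at -0.54 ± 0.32 SE and -0.28 ± 0.17 SE (limma adjusted p = 0.518 and 0.54).

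Serpinh1 values of lung and liver were low in some of the same animals. Among D0 mice the 2 lowest in liver, mice 1 and 5, were the 2 lowest in lung, and mouse 18 was the lowest of all 20 in both, at -5.05 in liver and -1.60 in lung. In forestomach the lowest of all 20 was mouse 7 at -1.41, mouse 18 was at -0.80, and mouse 5 was the lowest at D0 while mouse 1 was not low, at -0.28. The D3 difference in lung was -0.37 ± 0.31 SE and that in forestomach -0.12 ± 0.29 SE. Col1a1, a main client, differed by 0.58 ± 0.12 SE in lung at D3 (limma adjusted p = 0.512) and by -0.36 ± 0.16 SE in liver (limma adjusted p = 0.385). The median difference of the 4 listed clients was 0.23 in lung and -0.18 in liver, and none was called.

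**Figure D4:**
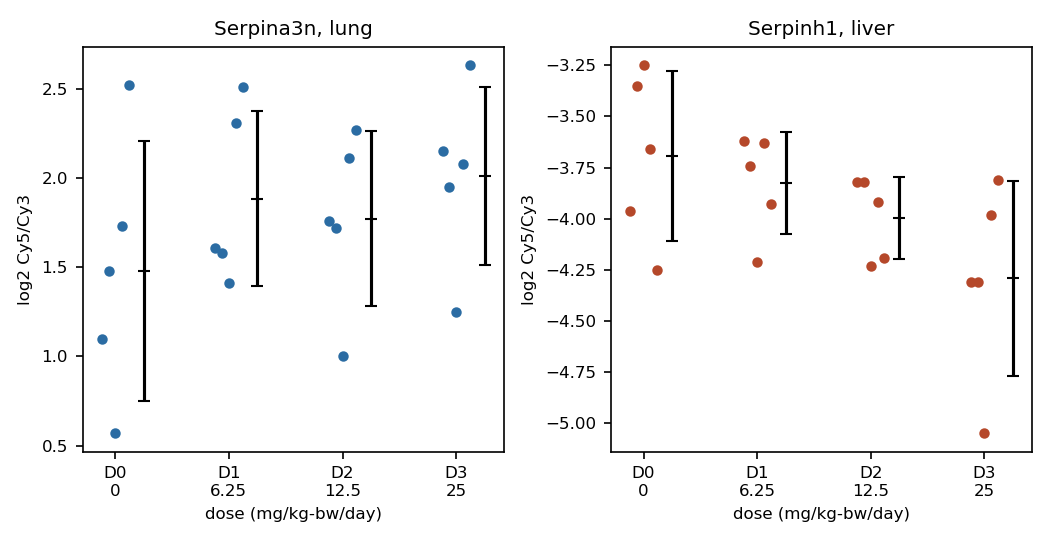
Log2 ratio of Cy5 to Cy3 by dose (D0 to D3, in mg/kg-bw/day) for Serpina3n in lung and Serpinh1 in liver, with each mouse as a point and the mean ± SD of 5 mice as a bar; the vertical scales differ. Serpina3n has means of 1.48 at D0 and 2.01 at D3 and Serpinh1 of -3.69 and -4.29, and the mice of these doses overlap for both. The highest Serpina3n value at D3, 2.63, is that of mouse 20.

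In forestomach the lowest p at D3 was that of Serpinb1a, with D3 values of 3.00, 2.71, 2.66, 2.80 and 2.70 and D0 values of 2.37, 1.62, 1.62, 2.80 and 2.84. Mice 2 and 3, with the glandular markers, were its low D0 arrays. The difference was 0.52 ± 0.25 SE (unadjusted p = 0.0512, limma adjusted p = 1). Serpinb6b (-0.35 ± 0.24 SE) and Serpina11 (-0.33 ± 0.23 SE) followed, both with a limma adjusted p of 1. Serpinb6b was at -0.19 without mouse 2, the array with lung epithelial markers, and at -0.51 without mouse 5. No difference of the D3 change between 2 tissues was called for any member by limma, with unadjusted p under 0.05 for 1 of 47 members for lung against liver (2.96% of all probes), 3 for lung against forestomach (2.06%) and 0 for liver against forestomach (4.26%).

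Serpina3f, a clade A gene of the alpha-1-antichymotrypsin cluster, set a few animals apart in more than one tissue, and it was picked after its values were seen. With its brighter probe, mice 6, 12, 18 and 19 read -1.07, -0.79, -0.73 and -0.82 in lung and -1.03, -1.05, -1.14 and -0.68 in liver. The other 16 mice ranged from 1.75 to 3.86 in lung and from 0.67 to 2.10 in liver, so the same 4 animals were apart in both tissues with no value between. They came from D1, D2 and D3, with 2 of them in D3 and none in D0.

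The dimmer Serpina3f probe, annotated with the same transcript, did not set these animals apart in lung and read 3 of them highest in liver. It read 0.91, 2.37, 1.05 and 1.35 in the lungs of mice 6, 12, 18 and 19, within the range of 0.21 to 2.28 of the other mice except for mouse 12. In liver it read 1.26, 1.99, 1.77 and 1.15, where the rest ranged from 0.16 to 1.17, so 3 of these mice lay above all others and mouse 19 just inside the range. The reason for the disagreement between the probes was not tested.

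**Figure D5:**
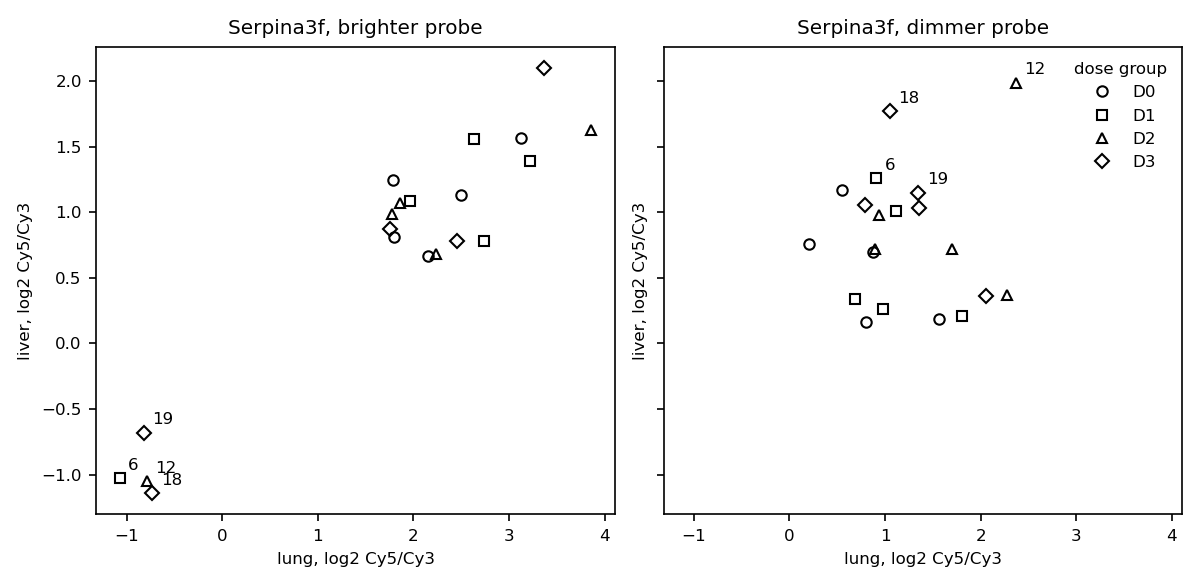
Serpina3f log2 ratio in lung (horizontal) and liver (vertical) of the same mouse, for its brighter and its dimmer probe, with the symbol giving the dose group. Mice 6, 12, 18 and 19 lie below -0.6 in both tissues with the brighter probe and among the higher liver values with the dimmer one.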

How the data were processed

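Gene expression was measured on 60 two-colour Agilent arrays, 20 per tissue. The authors scanned the arrays and deposited the median spot intensities from Feature Extraction 10.7.3.1, together with a table of normalised log2 ratios, and the scanner files name genome build mm9. From the intensities, without background subtraction as in the study's methods, log2 ratios of Cy5 to Cy3 were computed per array after loess normalisation (limma 3.58.1 in R 4.3.3). Control spots were left out, 0.46% of values were removed for outlier flags, and 0 were saturated. Per array the ratios correlated with the deposited log2 values at r = 0.992 to 0.999 across probes. Spots of a probe were averaged.

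A probe was tested in a tissue when its Cy5 signal was well above background on 5 or more of the 20 arrays (in any tissue when tissues were compared). This kept 31022 lung, 25893 liver and 25070 forestomach probes, and 33255 for the tissue comparisons. The share of probes well above background per array was 34.9% to 58.6% in lung, 36.3% to 48.3% in liver and 21.3% to 53.3% in forestomach, and the number of arrays limits the precision. Doses were compared within a tissue and tissues across all 60 arrays, with limma and Benjamini-Hochberg adjustment over all probes tested, in place of the MAANOVA of the study's methods. A call needed an adjusted p of 0.05 or less and at least 1.5-fold. Samples were grouped by the tissue and dose in their labels.

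Genes were named by RefSeq accession. Named genes were the 6 with the largest lead of a tissue over both others, the 3 with the lowest p at D3 in each tissue, and members of known role, while Serpina3f and Serpina9 were added after their values were seen. A named member is not reported here, though counts over the family include it. The members, the gene lists and the tests were chosen with earlier results of these data known. Same-numbered arrays were taken to come from the same animal because of the mouse number in their labels. Deviations from the group means correlated between tissues at a median of 0.07 for lung and liver, 0.27 for lung and forestomach and 0.01 for liver and forestomach. These values do not settle the pairing, since lung and forestomach shared slides and the other medians were small. Alternatives were another background correction and normalisation, other filters and thresholds, slide or mouse as a block, and leaving out each mouse. On simulated data for lung at D3 across 31022 probes, 91% of changes of 1 log2 unit and 98% of changes of 2 log2 units were recovered. The changed probes were drawn at random, and the noise was independent between probes, with no slide effect. Recovery for members with a wide spread, such as Serpina3f in lung (within-dose SD 1.55), was not measured.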

Additional observations from a re-analysis of the deposited data

Results flagged for a closer look

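Of 97 groups of 5 arrays, 10 held a value further from the others than Dixon's 95% critical value allows, where chance gives about 1 in 20 groups. The lung array of D0 mouse 1 held 7 of them: 6.54 for Serpinb3c, 6.26 for Serpinb3a, 4.69 for Serpinb5, 4.60 for Serpinb12, 1.45 for Serpinb6a, 1.36 for Serpinb13 and 0.45 for Serpinb2, with the nearest other lung values at 0.66, 0.17, -0.38, 0.25, 0.30, 0.17 and -0.36. All 8 squamous markers were above background on that array, and their part in these values was not tested. In D0 liver, Serpina3m was 6.70 in mouse 4 against a nearest value of 8.53, Serpinb5 was -0.70 in mouse 5 against -0.49 with no array above background, and Serpinb9 was -0.23 in mouse 2 against 0.27.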

How the results depend on the processing

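Counts of called members stayed within 1.5 times their value in 368 comparisons of a count with an alternative, with 2 exceptions. These were the slope on dose in lung, which called 1 member with slide as a block and 0 without, and the lung and forestomach comparison, with 8 members at 8-fold or more against 25 at 1.5-fold. With mouse as a replicate block, 32, 25 and 40 members were called for lung against liver, lung against forestomach and liver against forestomach, against 30, 25 and 40 without the block. Leaving out each mouse gave 30 to 32, 22 to 26 and 38 to 39. Shares over all probes are not given for these settings. Among single members 9 values became stronger and 5 weaker under an alternative. Another 7 values turned sign, none of them called. Serpinb5 in lung minus liver went from 0.995 (limma adjusted p = 0.0783) to -0.043 without mouse 1 (range over left-out mice -0.043 to 1.289, the highest with an adjusted p of 0.0375) and to -0.056 without only the lung array of mouse 1, an alternative added after seeing the data. Serpinf1 in lung minus forestomach was -0.108 with the mean of its probes. Serpinh1 in lung minus forestomach was -0.068, and became 0.086 as the mean of 4 doses, 0.095 without mouse 1 (range over left-out mice -0.268 to 0.095), 0.213 without the forestomach arrays of mice 1 and 4 and 0.078 without the lung array of mouse 1, the last 2 added after seeing the data. The causes were not tested. Signal over background limits 12 of the 59 members, which passed the filter in no tissue.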
